A study of Homo sapiens with 6 samples.

Results

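LENG8, NBEAL2 and DDX11 are 3 protein-coding genes of 60671 annotated genes whose transcript abundance was measured by RNA-seq in the tumor core (TC) and tumor margin (TM) of human breast cancer xenografts. They were picked from these same data because each was about 3-fold higher in every TM sample than in the TC samples. The TM and TC values of the 3 genes are therefore given as a description, and no test of that difference is reported for them. The unit is TPM, transcripts per 1000000, which is corrected for transcript length so that levels of different genes can be set side by side.

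The tumors were grown from the MDA-MB-231 line, which comes from a triple-negative human breast carcinoma and is labelled as wild type, in 3 TC and 3 TM samples. The cells had been injected orthotopically with Matrigel into the mammary fat pads of female NSG mice, which lack T, B and NK cells but keep their own stroma, vessels and myeloid cells. Core and margin were dissected from tumors without any drug, so all 6 samples share the cell line, the host strain and the injection. The zone is the only difference between the groups that the labels name. The study counts its replicates as mice within each group, the labels name no animals, and neither says whether a core and a margin came from the same mouse or how many days the tumors had grown.

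The 3 proteins have unrelated roles. LENG8 carries a SAC3 domain, the fold that MCM3AP, the scaffold of the TREX-2 mRNA export complex, also carries, and it acts on RNA in the nucleus. NBEAL2 is a large BEACH-domain protein of membrane traffic, best known because its loss leaves platelets without α-granules in gray platelet syndrome. DDX11 is an iron-sulfur DNA helicase of the same family as ERCC2 (XPD), BRIP1 and RTEL1. It assists sister chromatid cohesion at replication forks, and its loss causes Warsaw breakage syndrome.

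The 3 genes lie on different chromosomes. In GENCODE v29 on GRCh38, LENG8 (ENSG00000167615) is at chr19:54448887-54462037, NBEAL2 (ENSG00000160796) at chr3:46979683-47009703 and DDX11 (ENSG00000013573) at chr12:31073845-31104791, all on the plus strand. Each value sums all transcripts of its gene and points to no particular exon or intron. The stretch of 250 bases before the first RefSeq start of each gene (GRCh38.p14, plus strand, 5′ to 3′) is printed because the 3 genes were picked for a common pattern, so that letters they share can be looked for. Capitals mark matches, on either strand, to 5 motifs, the GC box (GGGCGG), the CCAAT box (CCAAT), the TATA box (TATAAA), the E-box (CACGTG) and the CRE (TGACGTCA). On the other strand a GC box reads CCGCCC, and a CCAAT box there reads ATTGG. The windows are LENG8 at chr19:54448949-54449198, NBEAL2 at chr3:46979416-46979665 and DDX11 at chr12:31073610-31073859.
LENG8: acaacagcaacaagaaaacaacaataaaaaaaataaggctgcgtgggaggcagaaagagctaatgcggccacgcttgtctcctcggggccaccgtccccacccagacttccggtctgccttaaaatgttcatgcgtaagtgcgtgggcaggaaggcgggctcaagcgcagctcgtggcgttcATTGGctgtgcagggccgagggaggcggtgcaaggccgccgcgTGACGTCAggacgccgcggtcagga
NBEAL2: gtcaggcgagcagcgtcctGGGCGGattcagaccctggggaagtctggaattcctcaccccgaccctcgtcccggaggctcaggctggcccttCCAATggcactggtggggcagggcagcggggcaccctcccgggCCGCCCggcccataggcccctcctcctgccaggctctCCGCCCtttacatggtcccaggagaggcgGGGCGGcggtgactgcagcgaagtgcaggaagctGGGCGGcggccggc
DDX11: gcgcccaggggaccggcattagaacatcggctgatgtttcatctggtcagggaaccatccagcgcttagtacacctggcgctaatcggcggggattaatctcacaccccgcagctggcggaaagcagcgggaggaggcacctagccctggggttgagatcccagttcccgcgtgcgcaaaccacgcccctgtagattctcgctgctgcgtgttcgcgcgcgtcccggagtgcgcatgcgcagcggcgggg

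No motif searched was found in all 3 windows. The LENG8 window held 1 CCAAT box at position -68 and 1 CRE at position -25, counted from the start, and 0 GC boxes. The NBEAL2 window held 5 GC boxes and 1 CCAAT box. None of the 5 motifs was found in the DDX11 window. Among 35116 RefSeq promoters of the same length, the GC box was found in 42.6%, the CCAAT box in 32.0%, the TATA box in 10.7%, the E-box in 6.3% and the CRE in 1.6%. Each gene has a second RefSeq start, and each of those second windows held 1 GC box and none of the other motifs. The GC content of the first windows was 59.6% for LENG8, 71.6% for NBEAL2 and 64.4% for DDX11, beside a median of 58.0% over all promoters. They held 21, 18 and 25 CpG dinucleotides, beside a median of 11.

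Before the levels are given, the samples need a short account. The depth behind each value is unknown, since TPM does not keep it, so no counting interval could be given and precision was judged from the spread between samples. The line's own markers VIM, KRT8, KRT18, KRT19, CD44 and EGFR were at 1 TPM or more in all 6 samples. ESR1, PGR and CDH1 were below 1 TPM in all 6, although the cells are labelled epithelial and CDH1 is the epithelial cadherin. EPCAM (3.66 to 6.02 TPM) and ERBB2 (22.31 to 40.73 TPM) were present. Mitochondrially encoded genes took 6.08% to 8.82% of TPM in TC and 9.23% to 11.1% in TM, and ribosomal protein genes 24.7% to 27.1% in TC and 20.0% to 24.2% in TM. Both shares were without overlap (two-sided p = 0.1 by exact permutation, which 3 against 3 samples cannot go below). TM replicate 3 stood apart from the other TM samples in its host tissue, as described below. Its TPM values also summed to 994381, whereas those of each other sample summed to 1000000 within rounding. The reason is not known.

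LENG8 was the most abundant of the 3 genes in each sample. Its level was 26.43, 24.9 and 18.51 TPM in TC replicates 1 to 3 and 65.36, 66.97 and 94.87 TPM in TM replicates 1 to 3. The groups did not overlap, and the lowest TM sample was 2.47 times the highest TC sample. TM replicate 3 was the highest and TC replicate 3 the lowest, and the other TM samples were close to each other. The mean was 23.28 ± 4.20 TPM in TC and 75.73 ± 16.6 TPM in TM (SD, n = 3), a ratio of means of 3.25 and a difference of 1.65 ± 0.20 (SE) on the log2(TPM + 1) scale.

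NBEAL2, the BEACH protein, measured 14.48, 9.76 and 13.65 TPM in TC and 39.97, 34.09 and 39.28 TPM in TM. Here replicate 2 was the lowest sample of both groups, and the lowest TM sample was 2.35 times the highest TC sample. The mean was 12.63 ± 2.52 TPM in TC and 37.78 ± 3.21 TPM in TM (SD, n = 3), a ratio of 2.99 and a difference of 1.52 ± 0.19 (SE) on the log2(TPM + 1) scale. Among the 3 genes, NBEAL2 had the smallest gap between the groups on this measure of lowest TM over highest TC.

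DDX11, the helicase, measured 12.96, 8.75 and 13.06 TPM in TC and 31.73, 37.3 and 34.94 TPM in TM. TC replicate 2 was again the lowest TC sample, whereas TM replicate 2 was the highest TM sample. The lowest TM sample was 2.43 times the highest TC sample. The mean was 11.59 ± 2.46 TPM in TC and 34.66 ± 2.80 TPM in TM (SD, n = 3), a ratio of 2.99 and a difference of 1.52 ± 0.19 (SE) on the log2(TPM + 1) scale.

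**Figure D1:**
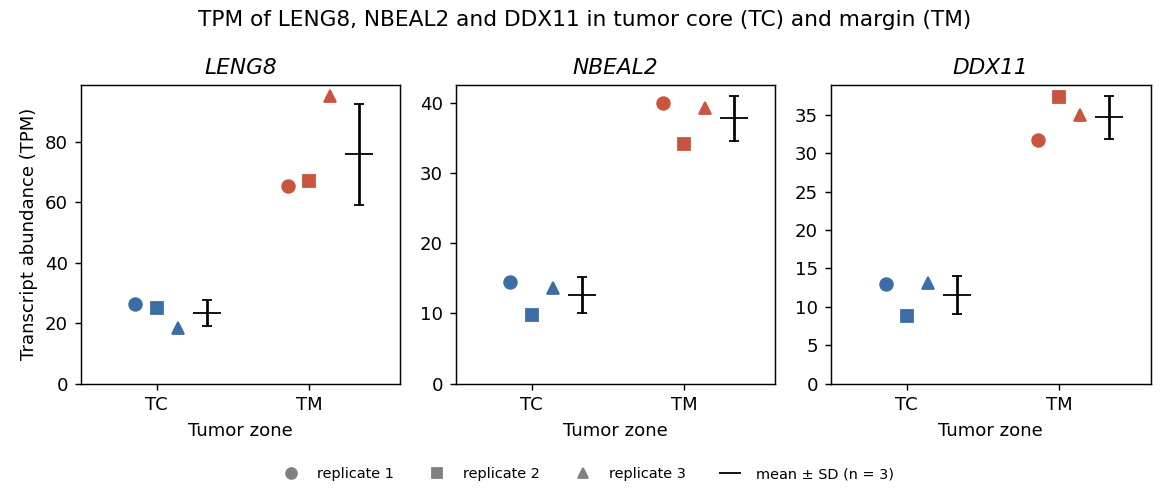
Level of LENG8, NBEAL2 and DDX11 in TPM (vertical axes, from 0, 1 scale per gene) in the 3 TC and 3 TM samples, with a symbol per replicate number and the mean ± SD beside each group. In each panel all TM points lie above all TC points, and the LENG8 points of TM spread most, from 65.36 to 94.87 TPM.

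The spread within a group was of similar relative size in TC for the 3 genes, with a coefficient of variation of 18.1% for LENG8, 19.95% for NBEAL2 and 21.2% for DDX11. In TM it was 21.9% for LENG8 but 8.51% for NBEAL2 and 8.07% for DDX11. The ratio of NBEAL2 to DDX11 ranged only from 0.914 to 1.26 over the 6 samples, so that these 2 genes lay within each other's spread in either zone. The ratio of LENG8 to NBEAL2 ranged from 1.36 to 2.55 and that of LENG8 to DDX11 from 1.42 to 2.85, with TC and TM values mixed. In TC, LENG8 lay at percentile 67.9 of the 13861 genes tested, NBEAL2 at 53.3 and DDX11 at 51.1. In TM they lay at percentiles 87.2, 75.6 and 73.8.

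All 3 genes passed the filter of at least 1 TPM in at least 3 samples, being above it in all 6, and 13861 genes passed it in all. In a limma fit over these genes, 18 (0.13%) were called higher in TM and 1 lower at an adjusted p under 0.05, and 2240 (16.2%) had an unadjusted p under 0.05. The mean of log2(TPM + 1) was higher in TM in 9283 genes (67.0%). Every TM sample exceeded every TC sample in 2617 genes (18.9%), the 3 genes included. With a ratio of means of at least 2.5 in addition, 327 genes remained (2.36%). Nothing is read from these counts, since the 3 genes were picked on the same contrast. The whole distribution was shifted, with a median difference of 0.136 in log2(TPM + 1) over all genes tested.

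Protein-coding genes of similar abundance surround the 3 in this respect. Among those with a mean of at least 10 TPM over the 6 samples, no overlap and a ratio of at least 2.5, LENG8, DDX11 and NBEAL2 took ranks 6, 7 and 8 by the lowest TM over the highest TC sample. Just above them stood PABPC1L (2.69), a relative of the cytoplasmic poly(A)-binding protein, and 4 genes of the NPIPB family (3.34 to 3.54), a family of closely related copies among which the division of reads was not examined. Just below stood HSF4, a heat shock transcription factor (2.29), GABBR1, a GABA-B receptor subunit (2.27), and TAF1C, a subunit of the RNA polymerase I factor SL1 (2.22).

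The selection called the 3 genes single-locus, which did not hold for DDX11. Stretches of 50 bases of each gene's most-exon transcript, the one with the most exons, were searched for in all other genes of the annotation. For NBEAL2 (8827 bases) 0% of the stretches occurred elsewhere. For LENG8 (3991 bases) 7.69% did, all in LENG9 and LENG8-AS1, which overlap its ends at the same locus, on the opposite strand, by 242 and 159 bases. For DDX11 (4182 bases) 36.8% did, all in its pseudogene copies DDX12P (ENSG00000214826, chr12:9418673-9448229, minus strand) and DDX12B (ENSG00000111788, chr12:9277235-9313241, plus strand). With 150 bases, the length of a read, 8.83% of the DDX11 stretches and 2.68% of the LENG8 stretches were shared. DDX12B was added to the copies after its values had been seen.

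The copies of DDX11 ran lower but with the same order of the zones. DDX12P measured 3.66, 2.04 and 4.03 TPM in TC and 7.49, 13.08 and 7.44 TPM in TM, a difference of 1.27 ± 0.30 (SE) in log2(TPM + 1) that was not called (limma, adjusted p = 0.102). DDX12B measured 3.18, 1.45 and 1.76 TPM in TC and 6.78, 7.24 and 4.75 TPM in TM, a difference of 1.24 ± 0.28 (SE), also not called (limma, adjusted p = 0.0972). How reads were divided among the 3 loci is not known, so the level of DDX11 alone is uncertain. The TPM sum of DDX11 and both copies, which still depends in part on that division because the genes differ in length, was 19.8, 12.24 and 18.85 TPM in TC and 46.0, 57.62 and 47.13 TPM in TM, with means of 16.96 ± 4.12 and 50.25 ± 6.41 TPM (SD, n = 3) and a ratio of 2.96. DDX11 made up 64.7% to 74.1% of that sum in the 6 samples. The DDX11L genes, pseudogenes named after DDX11, were all below 1 TPM in each sample.

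At the LENG8 locus the antisense RNA LENG8-AS1 measured 1.55, 0.47 and 1.26 TPM in TC and 3.16, 2.41 and 4.07 TPM in TM. The groups did not overlap, with a difference of 1.03 ± 0.30 (SE) in log2(TPM + 1) that was not called (limma, adjusted p = 0.148). The study names an orientation mode for the alignment, but whether the counting used strand is not clear from the sources used here. It is therefore not known whether reads of LENG8 and of its antisense partner were told apart where they overlap. The LENG9 gene at the other end, with the larger overlap, did not go with LENG8. It measured 4.1, 4.03 and 2.36 TPM in TC and 3.79, 1.31 and 2.05 TPM in TM.

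Among tested genes within 100 kb, every TM exceeded every TC sample in 1 of 5 near LENG8, which was LENG8-AS1, and in 0 of 3 near NBEAL2. No gene near DDX11 was tested. Over all genes tested the share was 18.9%, so nothing is read from so few genes. LENG8 has 15 neighbours within 100 kb, and 6 of them reached 1 TPM in some sample. Of the 5 tested, 0 were called (limma, adjusted p) and 2 had an unadjusted p under 0.05, beside 16.2% of all genes tested. LAIR2, a secreted collagen receptor of immune cells, ran the other way at 1.73, 1.69 and 1.12 TPM in TC and 0.16, 0.16 and 0.31 TPM in TM (limma, adjusted p = 0.0971). CDC42EP5, an effector of the GTPase CDC42, measured 2.85, 0.38 and 0.34 TPM in TC and 1.56, 1.19 and 0.92 TPM in TM, which overlapped. A processed pseudogene, ENSG00000235681, measured 2.24, 0.0 and 4.73 TPM in TC and 0.0, 0.0 and 6.56 TPM in TM, and a lincRNA, ENSG00000267838, reached 1.22 TPM in TM replicate 3 alone.

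NBEAL2 has 7 neighbours, 4 of which reached 1 TPM. CCDC12, a splicing-associated protein whose gene overlaps the start of NBEAL2 on the opposite strand by 2328 bases, measured 73.81, 87.84 and 112.77 TPM in TC and 82.4, 142.6 and 74.25 TPM in TM. SETD2, a histone H3K36 methyltransferase, measured 21.63, 17.13 and 12 TPM in TC and 21.01, 17.47 and 13.2 TPM in TM. TC and TM overlapped in both genes, and their differences of 0.08 ± 0.26 and 0.04 ± 0.26 (SE) in log2(TPM + 1) were small beside that of NBEAL2. PTH1R, the parathyroid hormone receptor, measured 5.38, 6.08 and 4.46 TPM in TC and 5.35, 5.68 and 4.53 TPM in TM. MYL3, a cardiac and slow muscle myosin light chain, measured 0.44, 0.4 and 0.14 TPM in TC and 0.68, 3.56 and 0.36 TPM in TM, and was not tested.

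DDX11 has 7 neighbours, of which 0 were tested and 1 reached 1 TPM. That gene, the transcribed pseudogene ENSG00000177359, measured 1.16, 1.62 and 0.33 TPM in TC and 0.42, 0.92 and 0.72 TPM in TM. The antisense RNA DDX11-AS1 and the snoRNA gene SNORA75, which lies inside DDX11, stayed below 1 TPM in each sample.

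**Figure D2:**
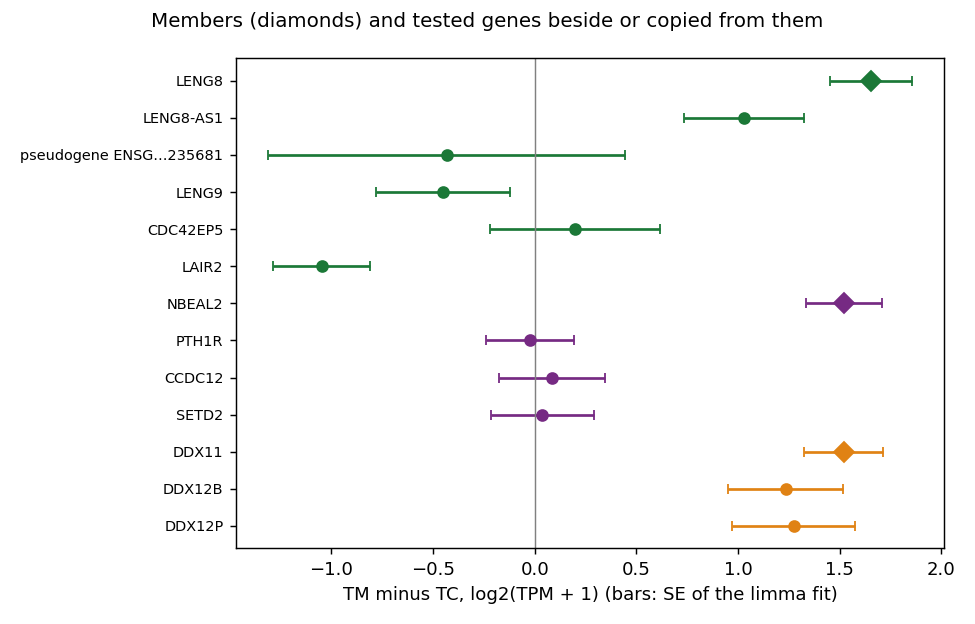
Difference TM minus TC in log2(TPM + 1) (horizontal axis, bars are the SE of the limma fit over 3 TC and 3 TM samples) of LENG8, NBEAL2 and DDX11 (diamonds) and of the tested genes near the first 2 and copied from DDX11 (circles, same color). The copies DDX12P and DDX12B and the antisense LENG8-AS1 lie above 1, whereas CCDC12, SETD2 and PTH1R lie at 0 within their SE.

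The 3 genes also share features of structure. The selection did not name these features, but they go with the difference it used, as given below. Sharing them is therefore not independent of the selection. Percentiles are over the 11716 tested protein-coding genes with introns. The GC content of the most-exon transcript was 61.3% in LENG8 (percentile 87.8), 62.4% in NBEAL2 (90.5) and 57.9% in DDX11 (76.6), beside a median of 49.7%. LENG8 has 16 exons (percentile 74.3), NBEAL2 54 (99.2) and DDX11 27 (92.8), beside a median of 10. Their introns are short. The median intron of LENG8 is 383 bases, that of NBEAL2 129 bases and that of DDX11 464.5 bases (percentiles 13.7, 2.01 and 16.7), whereas the median gene has 1701.5 bases. The annotation lists retained-intron transcripts for each, 1 of 9 transcripts in LENG8, 6 of 11 in NBEAL2 and 11 of 30 in DDX11. By their number NBEAL2 was at percentile 91.0 and DDX11 at 98.7. LENG8 was at 40.6, equal to the median of 1, so this feature was not shared by all 3.

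These features went with the difference between the zones across all genes. Genes were put into 4 bins of equal size. From the lowest GC content to the highest, the median difference was -0.014, 0.12, 0.20 and 0.26 in log2(TPM + 1), and the share with every TM above every TC sample was 3.41%, 12.3%, 26.9% and 34.2%. From the shortest to the longest introns the median difference was 0.22, 0.16, 0.11 and 0.061, and from the fewest to the most exons 0.032, 0.075, 0.18 and 0.27. LENG8, NBEAL2 and DDX11 were in the highest bin for GC and in the lowest for introns. NBEAL2 and DDX11 were also in the highest bin for exons. LENG8 was placed there too, but its 16 exons are the lower bound of that bin and the upper bound of the bin below. Genes tied at that number were divided by their order alone. A class of 356 other genes had at least 16 exons, a median intron of at most 464.5 bases and a GC content of at least 57.9%, the bounds set by the 3 genes themselves. In that class 94.9% of genes had the higher mean of log2(TPM + 1) in TM, every TM exceeded every TC sample in 64.0%, and the median difference was 0.517. Among the 11357 other protein-coding genes these values were 67.0%, 17.8% and 0.126. In 19 of the 356 (5.34%) every TM exceeded every TC sample with a ratio of at least 2.5, beside 122 of the 11357 (1.07%). A trend over GC content and length was then taken out of each sample, using the medians over all transcripts of a gene, not the most-exon transcript. The class median was then 0.25, beside -0.015 for the other protein-coding genes. LENG8, NBEAL2 and DDX11 kept differences of 1.40, 1.29 and 1.30 in log2(TPM + 1). Genes are not independent replicates, the 3 features are correlated with each other, and the part of each in the result was not tested.

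**Figure D3:**
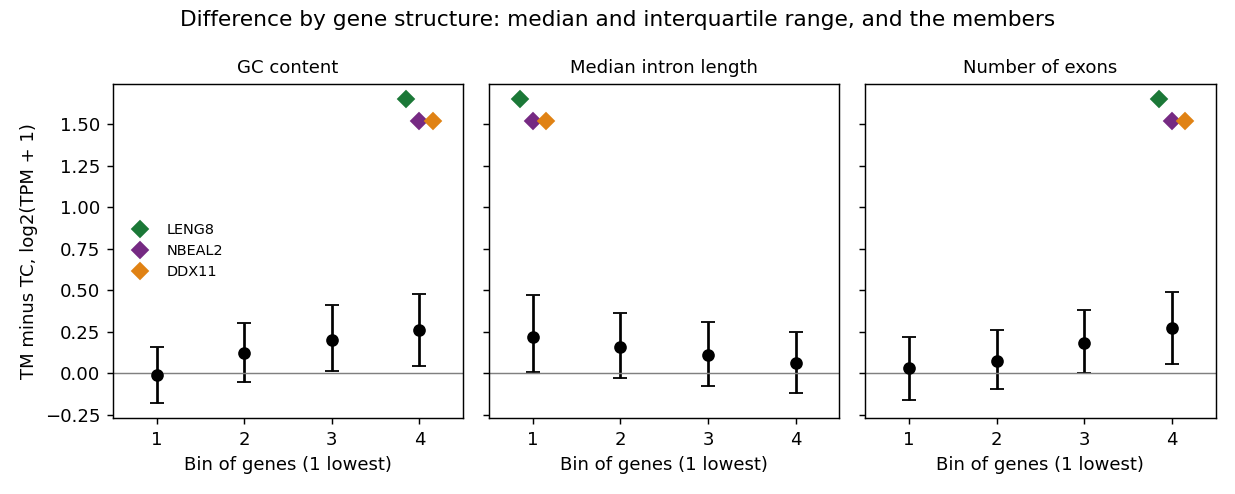
Difference TM minus TC in log2(TPM + 1) (vertical axis) for the tested protein-coding genes in 4 bins of 2929 genes by GC content, median intron length and number of exons (black points are medians, bars the interquartile range), with the 3 genes as diamonds in their bin. The medians climb with GC content and exons, decline with intron length, and stay below 0.3, whereas the diamonds lie above 1.5.

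Genes that work with each of the 3 were read from the same fit. For LENG8 the list held 17 genes of SAC3-domain proteins, TREX-2, nuclear exosome and mRNA export, all tested, of which 0 were called (limma, adjusted p). An unadjusted p under 0.05 was found in 5 of the 17, beside 16.2% of all genes tested. The median difference was 0.168, beside 0.136 over all genes. It was -0.0082 after median-of-ratios rescaling and 0.023 after quantile normalization, beside -0.022 and -0.014 over all genes. NXF1, the main mRNA export receptor, measured 35.47, 28.12 and 25 TPM in TC and 54.33, 46.88 and 56.48 TPM in TM, without overlap but not called (limma, adjusted p = 0.0843). MCM3AP, the TREX-2 scaffold and SAC3 relative of LENG8, measured 15.5, 15.42 and 18.8 TPM in TC and 26.49, 26.11 and 22.58 TPM in TM (limma, adjusted p = 0.148). PCID2, a TREX-2 subunit, measured 14.36, 16.66 and 16.95 TPM in TC and 20.95, 19.35 and 18.01 TPM in TM. SEM1, a small acidic subunit shared by TREX-2 and the proteasome, had every TC above every TM sample, at 294.52, 308.2 and 296.68 TPM in TC and 262.05, 254.7 and 250.85 TPM in TM, and was not called either (limma, adjusted p = 0.339).

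For NBEAL2 the list held 14 genes of BEACH proteins and α-granule formation, 9 of them tested, of which 0 were called (limma, adjusted p). An unadjusted p under 0.05 was found in 0 of the 9, beside 16.2% of all genes tested. Their median difference was 0.113. It was -0.056 after median-of-ratios rescaling and -0.078 after quantile normalization, beside -0.022 and -0.014 over all genes. Every TM exceeded every TC sample in 0 of the 9, beside 18.9% of all genes tested, and nothing is read from so few genes. LRBA, which protects CTLA4 from lysosomal loss, measured 24.06, 19.16 and 17.87 TPM in TC and 23.18, 23.0 and 25.48 TPM in TM. The closest paralog, NBEAL1, measured 4.52, 3.79 and 2.45 TPM in TC and 3.87, 3.06 and 1.3 TPM in TM. LYST, the Chediak-Higashi protein, was between 2.83 and 4.89 TPM in 5 samples and at 24.39 TPM in TM replicate 2. VPS33B, which like NBEAL2 is needed for α-granules, measured 12.31, 14.67 and 13.08 TPM in TC and 12.79, 13.69 and 13.82 TPM in TM. GATA1, GFI1B, SELP, VWF and WDFY4, genes of platelets and other blood or endothelial cells, were below 1 TPM in each sample.

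For DDX11 the list held 22 genes of iron-sulfur helicases, their cluster assembly and cohesion, all tested, of which 0 were called (limma, adjusted p). An unadjusted p under 0.05 was found in 7 of the 22, beside 16.2% of all genes tested. The median difference was 0.177. It was 0.013 after median-of-ratios rescaling and -0.015 after quantile normalization, beside -0.022 and -0.014 over all genes. The nearest to a call was CHTF18, a subunit of the alternative clamp loader that acts in cohesion, at 12.76, 12.97 and 10.87 TPM in TC and 29.77, 27.24 and 27.2 TPM in TM, with a difference of 1.14 ± 0.16 (SE) and an adjusted p of 0.051 by limma. RTEL1, a helicase of the DDX11 family, measured 9.42, 10.08 and 7.8 TPM in TC and 17.77, 13.16 and 18.26 TPM in TM (limma, adjusted p = 0.126). ERCC2, the helicase of TFIIH, measured 20.31, 22.21 and 21.16 TPM in TC and 31.89, 30.64 and 30.37 TPM in TM (limma, adjusted p = 0.128). The other family member, BRIP1, overlapped, at 4.12, 1.99 and 1.62 TPM in TC and 4.82, 3.36 and 2.57 TPM in TM.

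Partners of DDX11 at the fork were mixed. CIAO1, which inserts iron-sulfur clusters, measured 25.25, 25.91 and 25.47 TPM in TC and 34.69, 36.62 and 37.07 TPM in TM, and TIMELESS, a DDX11-binding fork protein, measured 17.08, 14.82 and 17.34 TPM in TC and 30.18, 24.93 and 20.71 TPM in TM. Neither was called (limma, adjusted p = 0.137 and 0.177). Of the cohesin ring itself, SMC1A measured 15.88, 11.94 and 10.04 TPM in TC and 25.71, 22.92 and 16.14 TPM in TM, whereas SMC3 overlapped, at 16.09, 12.4 and 11.34 TPM in TC and 22.67, 12.89 and 4.65 TPM in TM. ESCO1, which acetylates SMC3, had every TC above every TM sample, at 8.46, 6.58 and 5.56 TPM in TC and 4.46, 3.14 and 5.29 TPM in TM.

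The last list held 14 genes with introns detained in the nucleus and nuclear long RNAs, CLK kinases, L cyclins and RBM splicing regulators among them. All 14 had the higher mean in TM, beside 67.0% of all genes tested, and 9 had every TM above every TC sample, beside 18.9%. None was called, 0 of 14 by limma's adjusted p, and 9 had an unadjusted p under 0.05, beside 16.2%. Their median difference was 0.628 in log2(TPM + 1), and it stayed at 0.45 or more after median-of-ratios rescaling and quantile normalization. This list was chosen with earlier results of these samples known, so its direction is not independent evidence. RBM5, a splicing regulator, measured 52.06, 46.43 and 39.43 TPM in TC and 90.12, 87.13 and 112.66 TPM in TM. MALAT1, a nuclear long RNA, measured 7.54, 5.9 and 4.21 TPM in TC and 23.76, 27.35 and 89.71 TPM in TM, with the highest value in the same sample as LENG8. NEAT1, the RNA of paraspeckles, measured 29.97, 18.78 and 22.31 TPM in TC and 46.88, 56.74 and 55.11 TPM in TM. The adjusted p was 0.0658 for RBM5 and NEAT1 and 0.0813 for MALAT1 by limma.

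**Figure D4:**
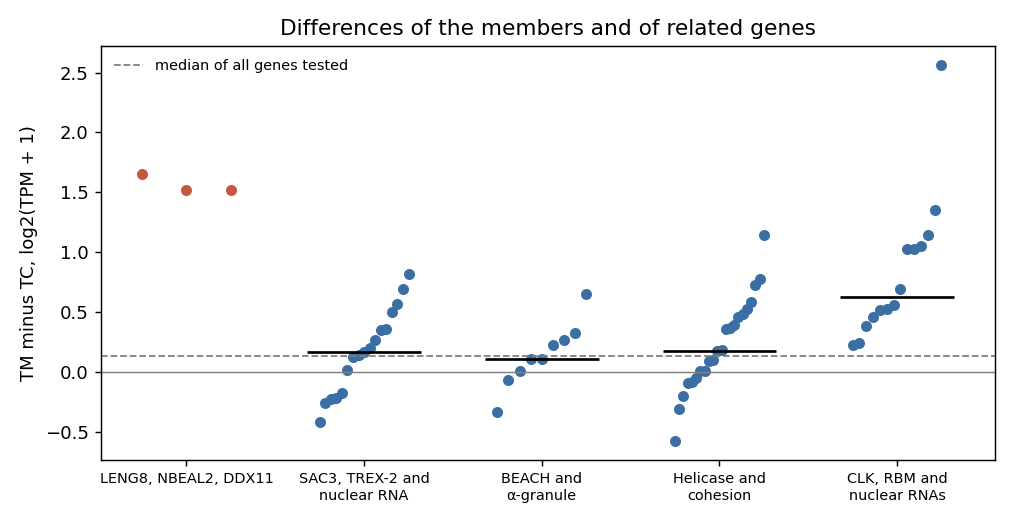
Difference TM minus TC in log2(TPM + 1) (vertical axis) of LENG8, NBEAL2 and DDX11 and of each tested gene of the 4 related lists (points), with the list median as a black bar and the median of all 13861 tested genes, 0.136, as a dashed line. The medians of the first 3 lists lie near the dashed line, whereas the last lies at 0.628. Those first 3 change sign under some scalings, as does the median of all genes.

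To see which genes ran most like each of the 3 from sample to sample, log2(TPM + 1) was correlated over the 6 samples. These Pearson coefficients are a description over 2 separate groups of 3, and they mostly carry the difference between the groups. For LENG8 the closest genes were NPIPB13 (0.998), IGHMBP2, a helicase (0.998), RBM5 (0.998), PABPC1L (0.997) and ENSG00000228434 (0.997), and TM replicate 3 was the highest TM sample in each. For NBEAL2 they were NUTM2A (0.997), LIF, a cytokine of the IL6 family (0.996), PLEKHM1P1 (0.995), MYO19, a mitochondrial myosin (0.995), and RNF31, a catalytic subunit of the linear ubiquitin ligase (0.994). For DDX11 they were SUPT7L, a SAGA subunit (0.997), RNF31 (0.995), ENSG00000267383 (0.995), METTL17, a mitochondrial ribosome assembly factor (0.993), and FKBP11, a prolyl isomerase of the secretory pathway (0.993). NBEAL2 and DDX11 correlated at 0.985 with each other, which placed DDX11 19th in the order for NBEAL2. LENG8 correlated at 0.937 with NBEAL2 and 0.924 with DDX11, and 398 genes ran closer than 0.95 to LENG8.

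Other cell types differed between the samples. In bulk tissue, fewer cells of a type and less RNA per cell cannot be told apart, and no step that separates mouse from human reads is described. Summed over 10 skeletal muscle markers, the level was 6.62, 8.83 and 5.45 TPM in TC and 193, 510 and 2.17 TPM in TM. Summed over 10 fibroblast markers, it was 69.3, 127 and 231 TPM in TC and 485, 1030 and 94.9 TPM in TM. Both sums were highest in TM replicates 1 and 2, and TM replicate 3 lay within the TC range for the fibroblast sum, of which COL1A1 was the largest part, and below it for the muscle sum. Single markers did not all follow the sums. PDGFRB, a receptor of fibroblasts and pericytes, measured 2.51, 2.5 and 2.58 TPM in TC and 3.45, 4.95 and 3.9 TPM in TM. It was without overlap but not called (limma, adjusted p = 0.303). Every TM exceeded every TC sample in this 1 of 10 fibroblast markers, beside 18.9% of all genes tested, and nothing is read from that count. COL6A3, a collagen VI chain, was highest in TM replicate 3 at 3.76 TPM. In the same sample LENG8 stood at 94.87 TPM, NBEAL2 at 39.28 TPM and DDX11 at 34.94 TPM. The part of host tissue in the result was not tested.

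For NBEAL2, whose known role is in blood cells, the markers of platelets and neutrophils were near 0, whereas 1 macrophage marker, CD68, was abundant. Reads were aligned to the human genome and the markers are human genes, whereas blood cells of the host are mouse cells. Low values therefore do not show that such cells were absent. The 6 megakaryocyte and platelet markers summed to 0.28 to 1.07 TPM in TC and 0.49 to 1.76 TPM in TM, and PF4, PPBP and GP9 were at 0 in each sample. Only GP1BA among them reached 1 TPM, at 0.52, 0.17 and 0.13 TPM in TC and 0.42, 1.37 and 1.02 TPM in TM, which overlapped. The 6 neutrophil markers summed to at most 0.54 TPM, with 3 of them at 0 in each sample. The 6 macrophage markers summed to 87.3 to 96.8 TPM in TC and 91.4 to 99.1 TPM in TM, nearly all of it CD68, while PTPRC, the pan-leukocyte CD45, was at most 0.3 TPM. CSF1R, the receptor of macrophage growth factor, measured 1.99, 2.32 and 3.0 TPM in TC and 4.07, 9.12 and 3.1 TPM in TM, without overlap (limma, adjusted p = 0.314). The endothelial markers summed to 3.84 to 5.09 TPM in TC and 4.51 to 8.32 TPM in TM, and the erythroid markers to 1.06 to 6.93 TPM and 0.29 to 4.82 TPM. PECAM1, an endothelial adhesion molecule, measured 0.18, 0.29 and 0.14 TPM in TC and 0.45, 0.3 and 1.28 TPM in TM, and was not tested. CDH5, the 1 endothelial marker tested, measured 3.07, 3.02 and 2.07 TPM in TC and 4.66, 2.24 and 1.52 TPM in TM. Its groups overlapped, and it was not called (limma, adjusted p = 0.974). The mitochondrial and ribosomal shares, given above, also parted the groups, and the part of these shares and of the blood and vessel markers in the result was not tested.

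**Figure D5:**
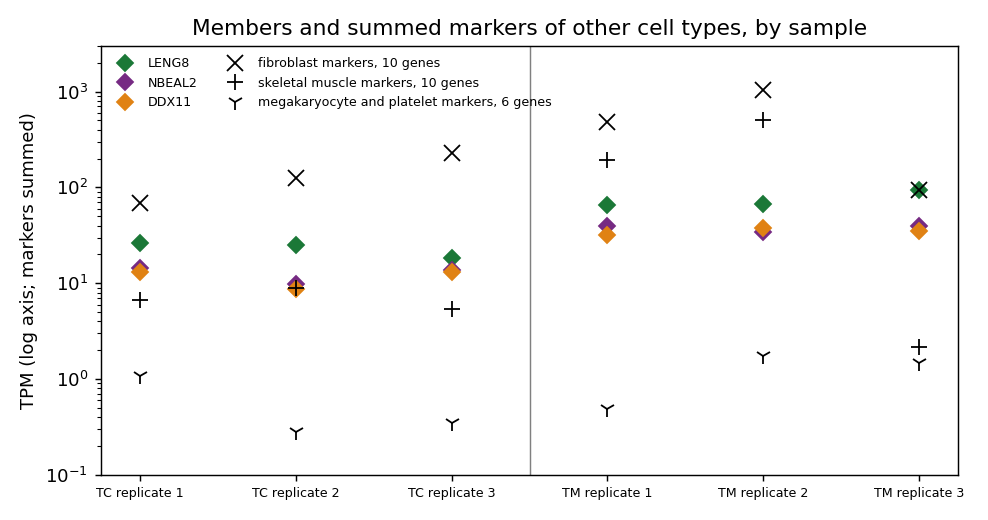
TPM (vertical axis, log scale) of LENG8, NBEAL2 and DDX11 (diamonds) and the summed TPM of fibroblast, skeletal muscle and megakaryocyte and platelet markers in each of the 6 samples (horizontal axis). TM replicate 3 has 2.17 TPM of muscle markers and 94.9 TPM of fibroblast markers and LENG8 at 94.87, NBEAL2 at 39.28 and DDX11 at 34.94 TPM.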

How the data were processed

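RNA-seq libraries of 3 TC and 3 TM samples were made with a TruSeq RNA kit. Per the study's methods and the submitters' processing notes, the authors trimmed paired reads of 150 bases, aligned them with HISAT2 to hg38, assembled them with StringTie and quantified genes with RSEM, and they deposited TPM per gene. The annotation release is not given in the sources used here. Groups and replicate numbers came from the sample titles. The matrix held 60671 annotated genes and 259 loci outside the annotation, which were left out.

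LENG8, NBEAL2, DDX11 and all gene lists were chosen with earlier results of these data known. A gene was tested where 3 or more samples reached 1 TPM, which held for 13861 genes. The fit was on log2(TPM + 1) with limma 3.58.1 in R 4.3.3 (mean-variance trend, two-sided, Benjamini-Hochberg over all genes tested, called under 0.05). Folds understate the change of low genes on this scale. The study's count model needs counts and was not run. Genes named are the 3 genes, their copies, antisense genes and neighbours above 1 TPM, list members with a described role, and the 5 genes most correlated with each. The genes ranked beside the 3, DDX12B and the structure class were chosen after their values were seen. Promoters are from RefSeq GRCh38.p14 and gene models from GENCODE v29, which held 96.3% of the annotated genes. P-values measure only the spread between these samples. Alternatives changed the pseudocount, the filter, the scaling, the moderation, the genes included or the samples.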

Additional observations from a re-analysis of the deposited data

How the results depend on the processing

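The differences of LENG8, NBEAL2 and DDX11 kept their sign under all 17 alternatives. They ranged from 1.40 to 1.75 in log2(TPM + 1) for LENG8, from 1.29 to 1.62 for NBEAL2 and from 1.30 to 1.61 for DDX11. The lowest value of NBEAL2, 1.29, came from removal of the GC and length trend, beyond 1 SD of its replicates. Leaving out each sample in turn gave 1.48 to 1.75 for LENG8, 1.36 to 1.62 for NBEAL2 and 1.35 to 1.61 for DDX11. Rescaling moved the median of all genes from 0.14 to -0.022 (median-of-ratios) or -0.014 (quantile), and the 3 genes then differed by 1.48, 1.35 and 1.35, or 1.51, 1.34 and 1.34.

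The number of genes called, 19, was less stable. It was 7 with a pseudocount of 0.1, 1 with no filter, 4 after quantile normalization, 6 after median-of-ratios rescaling, 12 without the mean-variance trend, 47 with robust moderation and 6 after removal of the GC and length trend. Leaving out a sample gave 0 to 17 calls. Without TC replicate 3 there were 0, without TM replicate 1 there was 1, without TC replicate 1 there were 2, without TM replicate 2 there were 8, and without TC replicate 2 there were 12, of which 4 were higher in TM. The causes were not tested. In the DDX11 list, CHTF18 was called with a mean of at least 5 TPM, without mitochondrially encoded genes and with robust moderation, a count of 1 each. In the list with detained introns, RBM5 was called with robust moderation and MALAT1 without TM replicate 3, also a count of 1 each, over a range of 0 to 1. The lists of LENG8 and NBEAL2 had 0 calls under all 17 alternatives.

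The replicate number as a block left 1 gene called, not higher in TM. Same-numbered samples deviated together only for number 1 (correlation 0.21, -0.12 and -0.16 for numbers 1 to 3). Not every sample correlated best with its own number. Correlations this weak, from 3 samples per group, cannot show whether same-numbered samples came from the same mouse. Without depth, no counting error can be given for low genes.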
